A study of Mus musculus with 2 samples.

Results

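The genes described here form the transcription factor cascade of fat cell formation: *Cebpa*, *Cebpb*, *Cebpd* and *Ddit3* of the C/EBP family, the nuclear receptor genes *Pparg* and *Rxra*, and *Adipoq*, a product of the finished fat cell. They were taken by name from the array's platform annotation, with every probe set that names exactly 1 gene, which gave 12 probe sets for 7 genes among 45101 probe sets in all. RNA came from primary mouse embryonic fibroblasts (MEFs) of C57BL/6 embryos at embryonic day 12.5, either wild type (*BCL11B*+/+) or *BCL11B*-/-, with 1 Affymetrix mouse genome array hybridized per genotype. Both cultures had been in adipocyte differentiation medium for 12 h at passage 2, with pioglitazone (10 μM), insulin (10 μg/ml), fetal bovine serum (10%), dexamethasone (DEX, at 1 μM) and the phosphodiesterase inhibitor methylisobutylxanthine (MIX, at 0.5 mM). The study's methods also list ascorbic acid in this medium. Neither array is of cells before differentiation, so no induction can be read from these values. The number of embryos behind each culture is not given in the sources used here.

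Adipogenesis in culture runs as a relay. Dexamethasone and cyclic AMP, which MIX keeps high, switch on *Cebpb* and *Cebpd* within hours, and their proteins bind the genes of C/EBPα and PPARγ, which then sustain each other and turn on the lipid genes of the mature cell. PPARγ binds DNA as a pair with RXRα and is the receptor for pioglitazone, whereas DDIT3, also called CHOP, pairs with other C/EBPs and keeps them from binding their usual sites.

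The widest differences were those of *Pparg*, *Cebpa* and *Adipoq*, which have 1 probe set each and did not share a sign. With 1 array per genotype, no pattern by step of the cascade can be read from them. The early factors *Cebpb* and *Cebpd* were at nearly the same level in both genotypes on their brightest probe sets, and so were *Ddit3* and *Rxra*. *Pparg* was 1.64-fold lower in *BCL11B*-/- MEFs, *Cebpa* was 1.45-fold lower, and *Adipoq*, which is dim on these arrays, was 1.47-fold higher. By a rule of 1.5-fold, or 0.585 on the log2 scale, 1 of the 7 genes was lower, none was higher and 6 were neither. Among all 12331 measured genes, 1.75% were lower and 1.61% higher by the same rule, so 1 of 7 is a count too small to set apart from the rest. At 1.2-fold 1 of the 7 genes was higher and 2 were lower, beside 8.81% and 7.8% of all measured genes, and at 2-fold none was, beside 0.349% and 0.503%. Here the probe set with the highest mean stands for a gene, and measured means that this mean is at least 5 log2 units, which all 7 genes passed. With 1 array per genotype there is no error between cultures and no p-value. As a technical yardstick, the SD between probe sets of the same gene, pooled over 5543 genes, was 0.145 log2 units of difference.

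*Bcl11b*, the deleted gene, was 2.26- to 2.97-fold lower in *BCL11B*-/- MEFs on its 4 probe sets, and whether these lie in the deleted part is not stated in the sources used here. The median of all probe sets was 5.28 in *BCL11B*+/+ and also 5.28 in *BCL11B*-/- MEFs. Normalization between arrays brings such medians together, so they are no check on the cultures. Fibroblast markers, from *Col1a2* to *Lum*, read between 9.90 and 14.06 on both arrays, so the genes of the labelled cell type were bright. The cultures also differed in ways the genotype label does not name. *Xist* read 10.80 in *BCL11B*+/+ and 4.803 in *BCL11B*-/- MEFs. Of Y-linked genes, *Uty* went from 6.80 in the wild type to 7.61 in the mutant, *Kdm5d* from 6.84 to 7.81 and *Eif2s3y* from 7.89 to 8.97, so *Xist* and these genes were both bright on the wild-type array. Macrophage markers had a median of -0.86, with 10 of 11 lower by 1.5-fold, and chondrocyte markers a median of 1.03, with 6 of 7 measured higher. When probe sets of a gene were averaged, 7 of 10 measured macrophage markers were lower (median -0.75) and 4 of 6 chondrocyte markers higher (median 0.78). Genotype, the sexes of the embryos and the makeup of the cultures therefore cannot be told apart for any value that follows.

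The promoters of *Pparg*, *Cebpa* and *Adipoq*, the genes with the widest differences of the 7, and of *Cebpb* as the first step, are shown next, because the cascade is wired through C/EBP, nuclear receptor and cyclic AMP elements in such regions. Each is the 250 bases before an annotated RefSeq transcription start, plus strand, build GRCm38.p6. Capitals mark matches, on either strand, to the letters of a C/EBP site (TTGCNNAA, or TTGCGNNA, which was added after the *Cebpa* sequence had been seen), the cAMP response element core (TGACG), the nuclear receptor hexamer (AGGTCA), the CCAAT box (CCAAT), the GC box (GGGCGG) and the TATA box (TATAAA).
*Cebpb*, chr2:167688665-167688914: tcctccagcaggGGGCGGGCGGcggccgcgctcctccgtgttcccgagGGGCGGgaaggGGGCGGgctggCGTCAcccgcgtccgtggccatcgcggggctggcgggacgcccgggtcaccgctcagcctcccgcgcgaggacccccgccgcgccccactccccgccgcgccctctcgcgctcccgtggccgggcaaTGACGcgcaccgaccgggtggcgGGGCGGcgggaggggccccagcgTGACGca
*Cebpa*, chr7:35119043-35119292: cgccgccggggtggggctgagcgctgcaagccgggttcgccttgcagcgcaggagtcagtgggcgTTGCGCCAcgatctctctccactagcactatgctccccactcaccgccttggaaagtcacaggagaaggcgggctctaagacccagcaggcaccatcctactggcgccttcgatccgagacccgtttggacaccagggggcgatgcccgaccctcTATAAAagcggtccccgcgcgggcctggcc
*Pparg*, start 1, chr6:115360894-115361143: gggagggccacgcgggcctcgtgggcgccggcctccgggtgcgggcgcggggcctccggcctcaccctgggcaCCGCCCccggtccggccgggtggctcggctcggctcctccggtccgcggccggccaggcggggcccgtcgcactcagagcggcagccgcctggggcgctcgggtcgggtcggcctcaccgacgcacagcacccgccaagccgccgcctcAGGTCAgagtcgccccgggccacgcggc
*Pparg*, start 3, chr6:115421816-115422065: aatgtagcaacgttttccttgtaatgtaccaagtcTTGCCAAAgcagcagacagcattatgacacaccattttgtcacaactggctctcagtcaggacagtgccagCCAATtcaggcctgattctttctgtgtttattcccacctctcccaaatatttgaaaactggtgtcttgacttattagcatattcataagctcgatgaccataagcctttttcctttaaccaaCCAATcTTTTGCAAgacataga
*Adipoq*, chr16:23146286-23146535: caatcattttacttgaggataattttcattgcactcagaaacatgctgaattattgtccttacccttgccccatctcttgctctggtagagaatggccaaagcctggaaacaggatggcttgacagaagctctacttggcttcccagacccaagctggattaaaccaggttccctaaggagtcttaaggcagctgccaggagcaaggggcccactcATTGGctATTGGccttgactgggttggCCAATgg

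These windows were unlike in composition. The *Cebpb* window was 81.6% G and C with 41 CG pairs, above 99.3% of the 32851 windows in the table, whose median was 52.4%. It held 5 GC boxes, of which the first 2 overlap, and 3 cAMP response element cores, the last of them at -7 to -3, where -1 is the base just before the start. The *Cebpa* window was 66.4% G and C and held a TATA box at -30 to -25 and the C/EBP variant TTGCGCCA at -185 to -178. *Pparg* had 3 annotated starts. The window of start 1 was 82.4% G and C, and that of start 3, farthest downstream, was 40.8% with only 2 CG pairs. The window of start 3 was the only one among the 9 windows of these genes with a match to TTGCNNAA, and it held 2, at -215 to -208 and at -16 to -9. The *Adipoq* window was 48.8% G and C, had no CG pair and held 3 CCAAT boxes between -34 and -3.

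Such letters are common. TTGCNNAA was found in 9.56% of all windows, TTGCGNNA in 2.94%, TGACG in 17.8%, AGGTCA in 14%, CCAAT in 33.8%, GGGCGG in 32.7% and TATAAA in 12.4%. The full cAMP response element TGACGTCA (1.55% of windows), the PPARγ and RXRα repeat known as DR1 (0.0335%), the composite ATF4 and C/EBP letters TGATGNAA (3.45%) and the endoplasmic reticulum stress element (0.113%) had no match in the 9 windows, and matches or gaps are a description of letters, not of binding. The table held windows for 6 of the 7 genes.

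**Figure D1:**
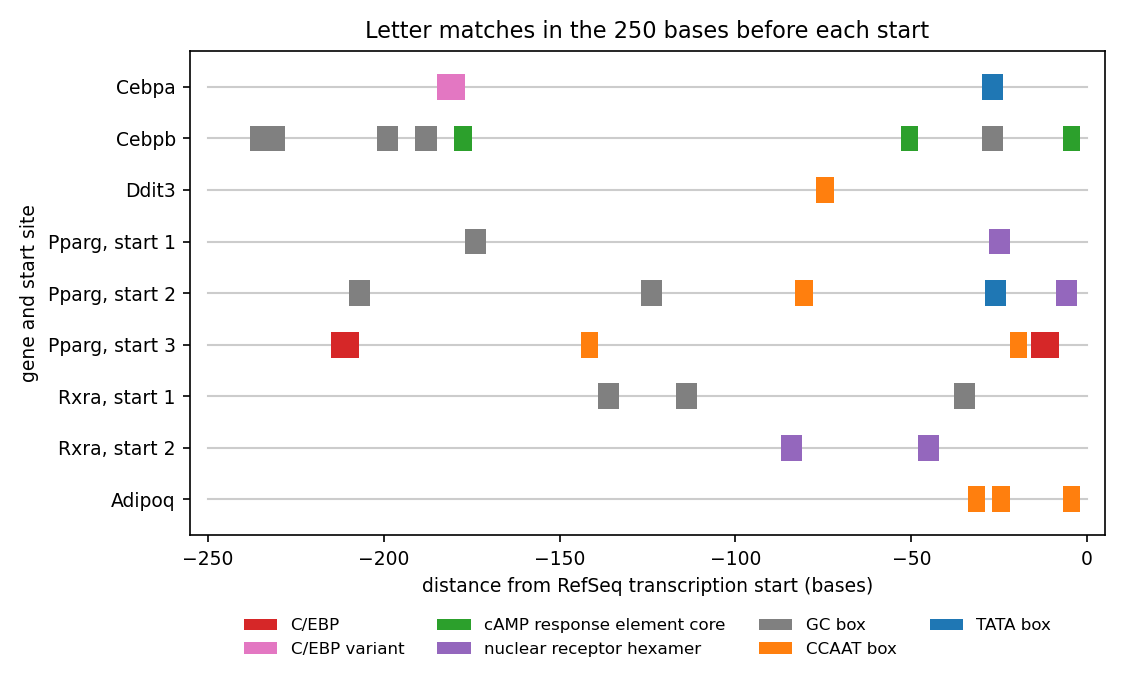
Positions of letter matches (coloured blocks) in the 250 bases before each RefSeq start of 6 genes, with distance from the start in bases on the horizontal axis and 1 line per start on the vertical axis. C/EBP matches (red) appear on the line of *Pparg* start 3, cAMP response element cores (green) on that of *Cebpb*, and 3 CCAAT boxes (orange) close to the start of *Adipoq*.

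The opening step showed little difference on its brighter probe sets. *Cebpb*, which encodes C/EBPβ, had a brighter probe set (1418901_at) at 11.64 in *BCL11B*+/+ and 11.49 in *BCL11B*-/- MEFs, a difference of -0.15, or 1.11-fold lower. Its other probe set (1427844_a_at) read 9.24 and 9.27, a difference of 0.02. The differences lie 0.17 log2 units apart with opposite signs, which is close to the yardstick SD, so no direction can be given for *Cebpb*. *Cebpd*, which encodes C/EBPδ and answers quickly to glucocorticoids, read 11.60 and 11.62 on its brighter probe set (1423233_at), a difference of 0.01. Its dimmer probe set (1456605_at) read 6.43 and 6.05, a difference of -0.38. These stand 0.39 apart, the widest gap between probe sets of any of these genes, and the mean of both is -0.18. The platform annotation gives no accession for the dimmer probe set, and whether it reports the same transcript was not tested.

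*Ddit3*, the stress-induced member that blocks other C/EBPs, read 8.42 in *BCL11B*+/+ and 8.45 in *BCL11B*-/- MEFs (1417516_at), a difference of 0.03. Its second probe set (1443897_at) read 6.36 and 6.26, a difference of -0.10. Neither value is larger than the yardstick SD of 0.145. *Cebpg*, a C/EBP without an activation domain and the only other family member with a measured probe set, read 8.34 and 8.0, a difference of -0.34.

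*Cebpa*, which encodes C/EBPα and holds the differentiated state, had 1 probe set (1418982_at). It read 7.04 in *BCL11B*+/+ and 6.51 in *BCL11B*-/- MEFs, a difference of -0.53, which is 1.45-fold lower and just short of 1.5-fold. Of the 12331 measured genes 255 had a lower difference. *Pparg*, which encodes PPARγ, the receptor that commits cells to the fat lineage, also had 1 probe set (1420715_a_at). It read 7.11 and 6.40, a difference of -0.71, which is 1.64-fold lower and is the only one of the 12 values past 1.5-fold. Lower differences were found for 144 measured genes. Genes of similar level, with a mean of 6 to under 7, were lower by 1.5-fold in 2.07% of 2224 cases. The suffix of this probe set marks probes shared by several transcripts of the gene, so PPARγ1 and the fat-selective PPARγ2, which start at different promoters, are not separated.

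Macrophages also express *Pparg* and *Cebpa*, and the macrophage markers moved in the same direction. On their brightest probe sets all 11 were below 0, from -0.95 for *Laptm5* to -0.50 for *Fcer1g*. Levels of these markers were 5.81 to 11.03 in *BCL11B*+/+ and 4.998 to 10.11 in *BCL11B*-/- MEFs, where *Ptprc* fell just under 5. Their linear signals summed to 12.13 on the log2 scale in *BCL11B*+/+ and 11.27 in *BCL11B*-/- MEFs. Their part in the values of *Pparg* and *Cebpa* was not tested. In RNA of a whole culture, fewer cells of a type and less RNA per cell cannot be told apart.

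*Rxra*, which encodes the DNA-binding partner of PPARγ, had 3 probe sets. The brightest (1454773_at) read 7.996 in *BCL11B*+/+ and 7.82 in *BCL11B*-/- MEFs, a difference of -0.18. The next (1425762_a_at) read 6.60 and 6.50, a difference of -0.10, and the dimmest (1430497_at) read 5.38 and 5.45, a difference of 0.07. The 3 values span 0.24 log2 units around a mean of -0.07, and their signs disagree. The related receptor genes *Ppara*, *Ppard* and *Rxrb* differed by 0.06, 0.07 and 0.01, and *Rxrg* was below the level at which genes were counted.

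*Adipoq*, which encodes the hormone adiponectin and is normally a late gene of the cascade, had 1 probe set (1422651_at), which read 5.46 in *BCL11B*+/+ and 6.02 in *BCL11B*-/- MEFs. The difference of 0.56 is 1.47-fold higher, opposite in sign to *Pparg* and *Cebpa*. Of the measured genes 226 had a higher difference. Its mean of 5.74 lies near the floor of 5. Of 11 other products of mature fat cells with a probe set, 4 had means under 5, *Lep*, *Lipe*, *Adig* and *Acvr1c*, while 7 were measured, among them the lipid synthesis genes *Scd1* (mean 12.60) and *Fasn* (8.78) and the adiponectin receptor gene *Adipor2* (9.20). None of the 7 was at least 1.5-fold apart. Their median of 0.00 was the value of *Retn*, which read exactly the same, 6.29, on both arrays. The widest difference was 0.28, for the glucose transporter gene *Slc2a4*, whose other probe set differed by -0.21, so it has no settled direction.

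**Figure D2:**
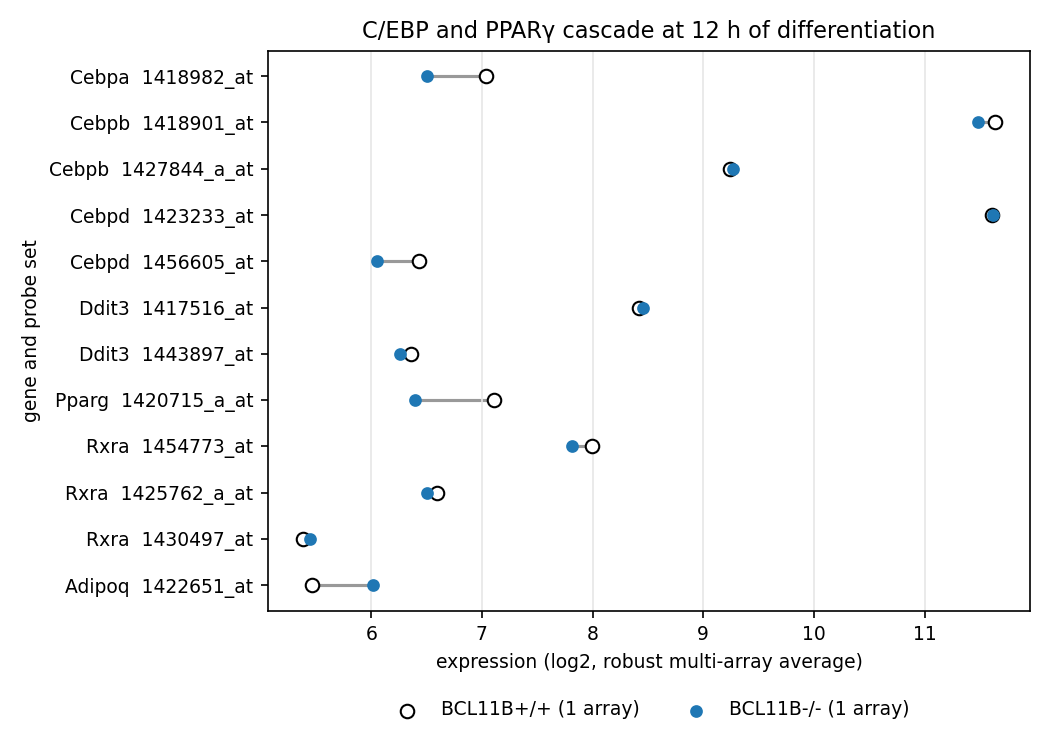
Level on the log2 scale (horizontal axis) of the 12 probe sets of the 7 genes (vertical axis), with open circles for the *BCL11B*+/+ array and filled circles for the *BCL11B*-/- array. There are no replicates and hence no error bars. The circles nearly coincide for the brighter *Cebpd* probe set (11.60 and 11.62) and are widest apart for *Pparg* (7.11 and 6.40). *Adipoq* has the filled circle to the right (5.46 and 6.02).

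By the weighted average difference, the study's ranking, which multiplies a difference by the relative expression level, *Pparg* stood at rank 697 of 45037 probe sets by absolute score. *Cebpa* stood at 1299 and *Adipoq* at 1957. None of the 12 probe sets was among the first 100. The dimmer *Cebpd* probe set ranked 3247 and the brighter *Cebpb* probe set 4020, and the remaining 7 ranked between 6865 and 36245.

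**Figure D3:**
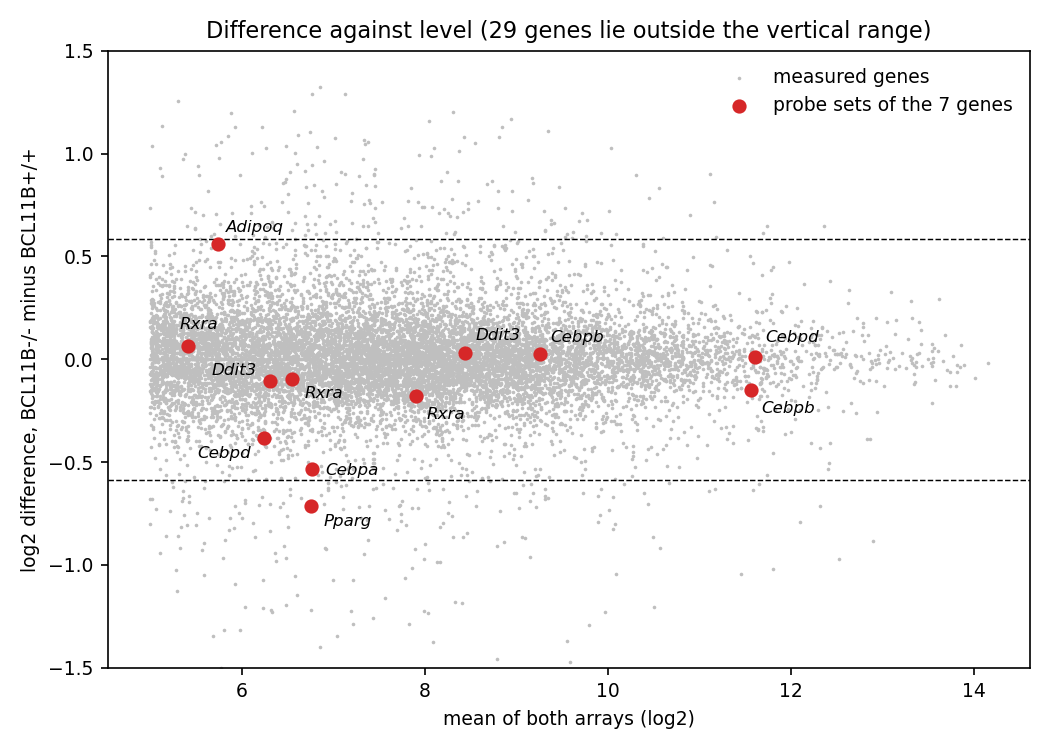
Difference in log2 expression (vertical axis, *BCL11B*-/- minus *BCL11B*+/+) against the mean of both arrays (horizontal axis, log2) for 12331 measured genes (grey) and the 12 probe sets of the cascade (red), with dashed lines at 1.5-fold. *Pparg* at -0.71 lies below the lower line, *Cebpa* at -0.53 and *Adipoq* at 0.56 lie just inside the lines, and 29 genes fall outside the plotted range.

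The genes around the cascade were read from lists of genes with known roles there, chosen with earlier results of these data known. Signals and factors that induce *Cebpb* and *Cebpd*, among them the glucocorticoid receptor gene *Nr3c1* and *Creb1*, gave no gene at 1.5-fold among 10 measured, with a median of -0.16. The widest difference was that of the immediate early gene *Fos*, at 8.95 in *BCL11B*+/+ and 8.50 in *BCL11B*-/- MEFs, a difference of -0.45. Dimmer probe sets of *Egr2* (-0.73) and *Klf4* (-0.60) were past 1.5-fold, whereas the brightest probe sets of these zinc finger factor genes differed by -0.32 and -0.44, so the count of lower genes is 2 when the probe set with the largest difference stands for a gene. *Nr3c1* differed by -0.07 and *Creb1* by -0.19. Of 9 measured factors that act upstream of PPARγ, 1 was higher and none was lower. It was *Ebf2*, a factor of fat cell precursors, which read 6.93 and 7.78, a difference of 0.85, and its other probe sets differed by 0.66 and 0.71. A dimmer probe set of *Klf6*, an early zinc finger factor gene, was just past 1.5-fold lower at -0.59, against -0.34 on the brightest.

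Coregulators of PPARγ held 1 lower gene among 10 measured, with a median of -0.09. It was *Ppargc1b*, a coactivator of oxidative metabolism, which read 6.10 and 5.51, a difference of -0.59, at the edge of the rule. The histone acetyltransferase genes *Ep300* and *Crebbp* differed by -0.09 and 0.01.

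PPARγ target genes split. Of 25 listed, 19 had a probe set that names exactly 1 gene, and *Plin1* was among those without. *Cidea*, *Cidec*, *Pck1*, *Aqp7*, *Ucp1* and *Nr1h3* were under the floor. Of 13 measured, 4 were lower in *BCL11B*-/- MEFs by the 1.5-fold rule, 1 was higher and 8 were neither, and their median was 0.02, against 0.00 for all measured genes. The median turned to -0.22 over the 10 targets with a mean of at least 7, so no direction can be given for the list. *Angptl4*, a secreted inhibitor of lipoprotein lipase, read 8.92 in *BCL11B*+/+ and 7.74 in *BCL11B*-/- MEFs, a difference of -1.18. *Lpl*, which encodes that lipase, read 13.02 and 12.04, a difference of -0.97, and -1.40 on its other probe set. *Cd36*, a fatty acid transporter gene, read 7.75 and 7.04, a difference of -0.71, and its other probe sets differed by -0.67 and -0.68. *Plin2*, a lipid droplet coat gene named after its value was seen, read 10.39 and 9.72, a difference of -0.67. The higher gene was *Pdk4*, a kinase gene that restrains glucose oxidation, at 8.40 and 9.21, a difference of 0.82.

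*Fabp4*, the fatty acid carrier aP2 and a classical target, was picked out after its value was seen. It read 9.85 in *BCL11B*+/+ and 10.16 in *BCL11B*-/- MEFs, a difference of 0.31, so on its brightest probe set it did not share the direction of *Pparg*. Its next brightest probe set differed by 0.20, and dimmer probe sets differed by 0.00 and -0.26. Several targets are also genes of macrophages or muscle and answer to glucocorticoids or to other PPARs, and what these share in the values was not tested.

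**Figure D4:**
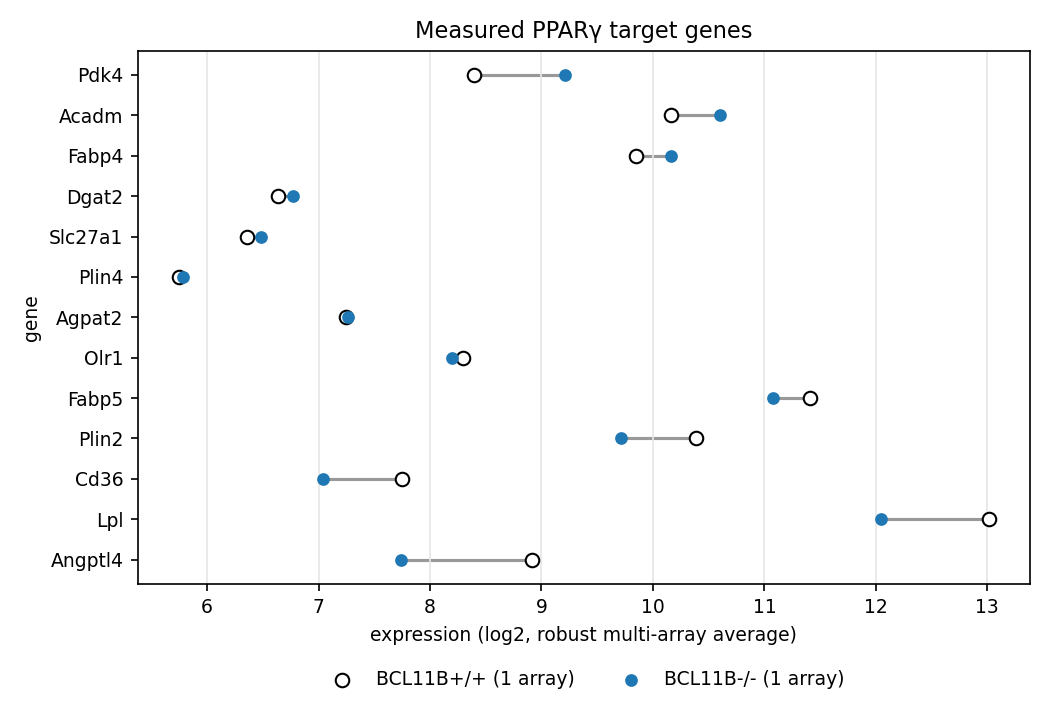
Level on the log2 scale (horizontal axis) of 13 measured PPARγ target genes (vertical axis, ordered by difference), with open circles for the *BCL11B*+/+ array, filled circles for the *BCL11B*-/- array and no replicates. Filled circles lie to the right for *Pdk4* (8.40 and 9.21) and to the left for *Angptl4* (8.92 and 7.74) and *Lpl* (13.02 and 12.04).

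Genes known to answer to C/EBPβ and C/EBPδ went both ways. Of 11 measured, 2 were higher, 1 was lower and 8 were neither, with a median of 0.04. Over the 8 with a mean of at least 7, 0 were higher and 1 was lower. Without suffixed probe sets 9 were measured, of which 2 were higher and 0 lower. The cytokine gene *Il6* read 5.31 in *BCL11B*+/+ and 6.40 in *BCL11B*-/- MEFs, a difference of 1.08. *Hp*, the haptoglobin gene, read 6.04 and 6.90, a difference of 0.86. *Saa3*, an acute phase gene that macrophages also make, read 8.63 and 7.64, a difference of -0.99, on its only probe set.

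The stress pathway that raises *Ddit3* held no gene at 1.5-fold among 17 measured, and their median was -0.09. *Atf4*, the direct activator of *Ddit3*, read 10.35 and 10.18, a difference of -0.17. The widest difference was that of *Atf3*, at 7.31 and 6.91, a difference of -0.40, and the chaperone gene *Hspa5* differed by 0.02.

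Across the 11 lists of the pathway and its fat cell products, 5 of 105 measured genes were higher, 7 were lower and 93 were neither, with a median of -0.01. Their shares of 4.76% and 6.67% stand beside 1.61% and 1.75% over all measured genes. The lists were chosen with earlier results of these data known, so no enrichment can be read from these shares. With 2 arrays the pattern of a gene is a single difference, and the genes nearest to *Pparg* in it were *Cdc7*, a replication kinase gene, *Cd36* and *Cdkn1c*, a cell cycle inhibitor gene, each within 0.0013 log2 units.

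**Figure D5:**
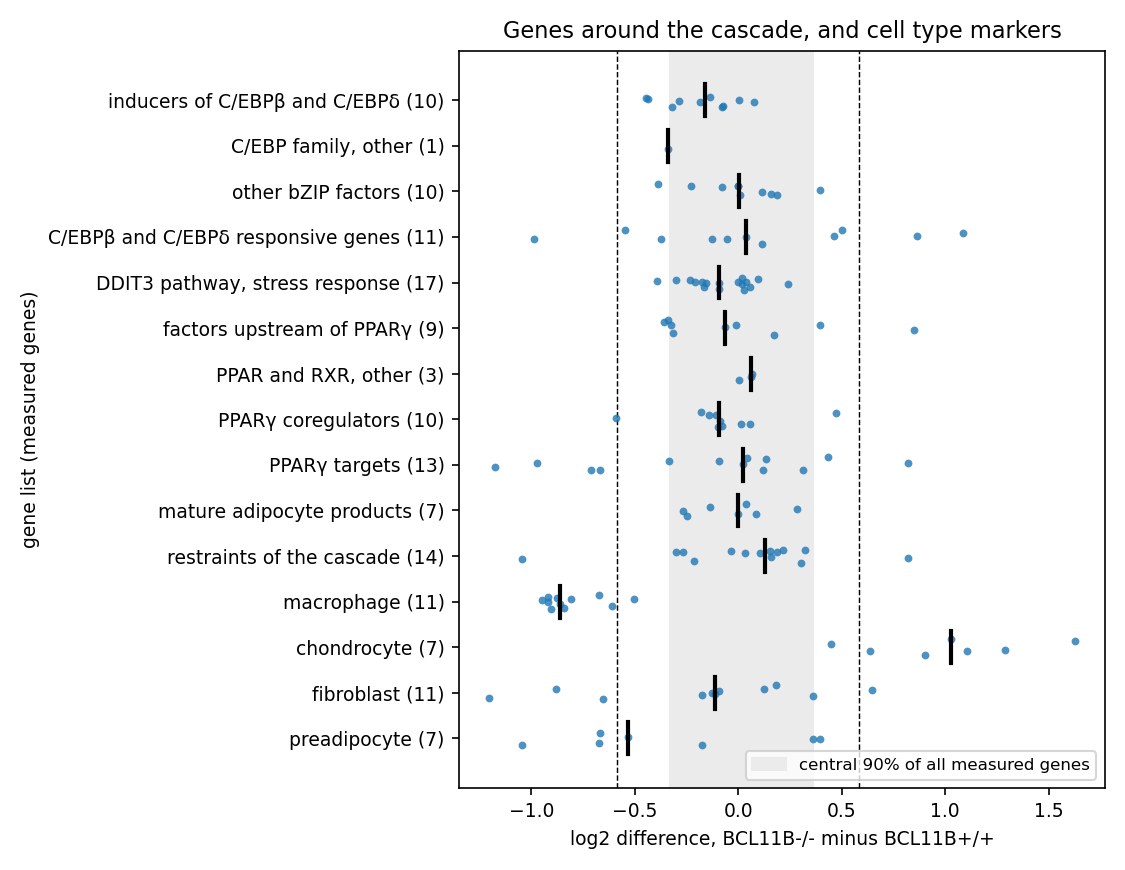
Difference in log2 expression (horizontal axis, *BCL11B*-/- minus *BCL11B*+/+) of genes (blue points) in lists around the cascade and of cell type markers (vertical axis, with the count measured in brackets), with black bars at list medians, a grey band for the central 90% of all measured genes and dashed lines at 1.5-fold. The medians of PPARγ targets (0.02, or -0.22 over those with a mean of at least 7) and of the *Ddit3* stress pathway (-0.09) lie within the band, while macrophage markers (median -0.86) lie to the left and chondrocyte markers (1.03) to the right.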

How the data were processed

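The authors deposited log2 values. They amplified and biotinylated 100 ng of total RNA per culture, scanned 1 array for each genotype, and quantified both with the robust multi-array average, with R 3.0.3 in the submitters' processing notes. Normalization between arrays would hide a change of total mRNA, and background pulls differences of dim genes toward 0. Of 45101 probe sets 64 were controls, and 34945 others were paired with 1 gene by the platform annotation. Of all probe sets without controls 2967, or 6.59%, had exactly the same value on both arrays, none of them among the 12 described here.

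Genes were represented by their probe set with the highest mean, and those with a mean of at least 5 were counted. The rule of 1.5-fold, the gene lists and the members were chosen with earlier results of these data known. All 12 member probe sets were named, with up to 2 highest and 2 lowest genes past 1.5-fold per list, or otherwise the widest difference. Remaining genes were named after their values were seen. Counting, ranking and loess were tested on simulated data. Alternatives were other probe set choices, a loess curve (span 0.4) or the median subtracted, filters at 7 or none, and rules of 1.2- and 2-fold. Promoter sequences and loci came from RefSeq tables of GRCm38.p6. Array values carry no genome build. Calculations used Python 3.11.15, pandas 2.3.3, statsmodels 0.14.6 and matplotlib 3.10.9.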

Additional observations from a re-analysis of the deposited data

How the results depend on the processing

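No paired analysis was possible because each genotype has 1 array, and for the same reason no replicate could be left out. *Cebpd* differed by -0.18 as the mean over its probe sets and by -0.38 on the probe set with the largest difference, against 0.01 on the brightest. *Pparg* has no probe set without a suffix and its mean is under 7, so in both settings, as at 2-fold, 0 genes of the cascade were lower in place of 1. At 1.2-fold 1 was higher (*Adipoq*) and 2 were lower (*Pparg* and *Cebpa*). Of 105 genes in the lists around the cascade, 5 were higher and 7 lower. These counts became 15 and 25 at 1.2-fold and 1 and 2 at 2-fold. Of the 75 list genes with a mean of at least 7, 2 were higher and 6 lower. All of these shifts are by construction. By plain difference *Adipoq* ranked 1115, the brighter *Cebpb* probe set 17579 and the brightest *Rxra* probe set 14342, against 1957, 4020 and 6865 by weighted average difference. In all, 67 alternative values of these results stayed within the technical yardstick or within 1.5 times of a count or rank and 15 did not. No difference of the cascade past 1.5-fold changed sign, but *Cebpd* did, as given above, and so did *Ddit3*, at -0.04 as the mean over its probe sets and -0.10 on the probe set with the largest difference, against 0.03. For the counts and medians of single lists, 408 alternative values stayed within these limits and 50 did not, mostly at 1.2- and 2-fold. Part of both tallies could not move, because the median subtracted was 0. *Cebpa*, *Pparg* and *Adipoq* have 1 probe set each, so other probe set choices could not change their differences. Averaged over its probe sets, *Gata2* was under 1.5-fold. The loess curve ran from -0.011 to 0.014 and the median difference was 0. The number of arrays limits the precision.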

Other observations

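Among genes listed as restraining the cascade the widest difference was that of *Dlk1*. *Dlk1*, the preadipocyte factor whose product holds cells back from differentiating, read 11.98 in *BCL11B*+/+ and 10.93 in *BCL11B*-/- MEFs, a difference of -1.04, and its other probe set differed by -0.86. *Gata2*, a factor that represses *Pparg*, read 6.46 and 7.28, a difference of 0.82, while its other probe set differed by only 0.08. Among 14 measured genes of this list these 2 were the ones past 1.5-fold, and the median was 0.13. *Nr2f2*, which encodes COUP-TFII, differed by 0.32, its dimmer probe sets by between 0.02 and 0.71, and *Wnt10b* by 0.19. The study cites work in which COUP-TFII represses *Wnt10b* and so favours adipogenesis, opposite to the role by which *Nr2f2* was listed. The count and median of this list include *Nr2f2*. Of 7 measured preadipocyte markers 3 were lower, *Dlk1*, *Cd34* (-0.67) and *Pi16* (-0.67), and none was higher, with a median of -0.54. That median was -0.24 when probe sets of a gene were averaged and -0.36 without suffixed probe sets, and 2 were then lower in each case.

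Other factors with a basic leucine zipper, which can pair or compete with C/EBPs, gave no gene at 1.5-fold among 10 measured, with a median of 0.00. *Nfil3* differed most, by 0.39. Of 11 fibroblast markers 3 were lower, with *Lum* at -1.21 and *Dcn* at -0.88 as the lowest, and 1 was higher, *S100a4* at 0.65. Of 8 osteoblast markers 3 were measured. *Dlx5* was higher, with 1.13, while *Sp7* differed by 0.18 and *Col1a1* by -0.11. *Ibsp* and *Alpl* were under the floor, and *Runx2*, *Bglap* and *Spp1* had no probe set that names exactly 1 gene. Of 6 endothelial markers only *Kdr* was measured, with 0.15.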
